A study of Mus musculus with 12 samples.

Results

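Collagen chain genes were taken as all genes of the array whose symbol consists of Col, a number, the letter a and a number, after each probe had been named through its RefSeq accession. The RefSeq table lists 44 such genes, 39 of them had a named probe, and 29 were measured, out of 12300 genes measured in all. The measured genes fell into 10 of the 11 fibrillar chains on the array, 7 of the 8 basement membrane chains, 6 of the 8 network-forming chains, 2 of the 6 fibril-associated chains (FACIT) and 4 of the 6 transmembrane and other chains. RNA was taken from C3H/10T1/2, mouse fibroblasts of embryonic origin that can be turned towards skeletal muscle by MyoD, a transcription factor of the muscle lineage. The lines carried a short hairpin RNA against Six4, a homeobox transcription factor (shSix4), or the control hairpin (shLuc), and each was infected with a pBABE retrovirus carrying MyoD with Flag and myc tags or with the empty pBABE vector. The 4 groups of 3 arrays were therefore shSix4 cells with MyoD, shSix4 cells with empty vector, shLuc cells with MyoD and shLuc cells with empty vector, each kept in differentiation medium with 2% horse serum for 24 h, begun 24 h after infection. The labels name 1 line for each hairpin, do not tell whether it is a clone or a pool, and do not tie replicates to separate cultures. The p-values therefore cover the spread between these arrays alone, and that spread may be technical.

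Collagens are trimers of alpha chains wound into a triple helix. Fibrillar collagens form the cables that give connective tissue its tensile strength, type IV collagen forms the sheet of the basement membrane that surrounds each muscle fibre, and type VI collagen forms beaded filaments that tie that sheet to the surrounding matrix. FACIT chains sit on the surface of fibrils, and the transmembrane chains stay anchored in the cell membrane. In muscle, most of this matrix is made by fibroblasts of the connective tissue, while muscle cells contribute basement membrane chains.

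Levels are given as log2 of the probe's signal relative to the 75th percentile of its own array, so a difference of 1 is 2-fold, and levels of different genes are not comparable. Per array 22318 to 27448 of 41174 probes were well above background. Arrays lay on 3 slides, each with 1 array of every group, and slide 1 was scanned on another day than slides 2 and 3. Slide 1 stood apart from slides 2 and 3 in many genes, collagens included, so results are given by slide and, where this changes a call, with the slide as a block in the fit. All 8 skeletal muscle markers (Myog, Myh3, Myl1, Tnnc2, Mylpf, Chrna1, Cdh15, Ckm) were higher with MyoD in both lines, and their mean level was 3.24 to 3.88 in shSix4 cells with MyoD and 4.78 to 5.66 in shLuc cells with MyoD. The fibroblast markers had 7 or 8 of 8 well above background on every array, and endothelial and leukocyte markers at most 2 of 5. Other lists were also read in part, with 5 to 6 of 7 osteoblast and 3 to 6 of 8 chondrocyte markers well above background. Adipocyte markers had 3 to 4 of 6 and epithelial markers 2 to 4 of 5. Of 5 measured osteoblast markers 1 was called higher with MyoD in each line, against 2.79% of all genes in shSix4 cells and 4.72% in shLuc cells. Six4 itself was -3.03, -2.93 and -1.54 in shSix4 cells with MyoD, against -1.45, -1.69 and -0.85 in shLuc cells with MyoD. Of the arrays with empty vector, those of shSix4 cells read -4.10, -3.00 and -2.82, against -2.62, -2.90 and -1.64 for shLuc cells. The shSix4 array was the lower one on every slide, while the groups overlap. The difference was -1.17 with MyoD (adjusted p = 0.558, or 0.0424 with the block) and -0.92 in cells with empty vector (0.999, or 0.168 with the block). Myod1 was -2.17, -0.86 and -0.23 in shSix4 cells with MyoD, against 0.07, -0.23 and 1.23 in shLuc cells with MyoD. This difference was -1.45 (limma, adjusted p = 0.837, or 0.152 with the block), lower in shSix4 cells on every slide. Its rise was 2.10 in shSix4 cells (0.482) and 4.03 in shLuc cells (0.0315), with both empty vector values of slide 3 missing. Whether its probe reads the introduced copy is not known, and its part in the results was not tested.

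The 29 measured chains were well above background on all 12 arrays in 25 cases. The exceptions were Col15a1 and Col23a1 with 10 arrays, and Col26a1 and Col27a1 with 11. Another 10 chains were on the array but were not well above background throughout any group, so no change is given for them. They were the fibrillar Col24a1, the type IV chain Col4a3, the network chains Col6a6 and Col10a1, the FACIT chains Col9a1, Col9a3, Col14a1 and Col19a1, and Col13a1 and Col28a1. By any 1 probe they were well above background on 0 to 5 of 12 arrays, and Col4a3, Col6a6 and Col28a1 did so on none. Col6a3, Col6a5, Col12a1, Col20a1 and Col22a1 had no named probe and were not analysed here.

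The first question was how collagen expression changed when MyoD was introduced. Col26a1 rose strongly in both lines, and no other collagen passed the threshold in the fit without the block. Col26a1 encodes a secreted collagen with an EMI domain, known from the mouse testis and ovary. In shSix4 cells its level was -0.52, 0.49 and 0.65 with MyoD, against -6.91, -4.31 and -3.58 with empty vector. In shLuc cells it was -0.18, 0.86 and 1.12 with MyoD, against -5.29, -3.77 and -3.64 with empty vector. All arrays with MyoD lay above all arrays with empty vector in both lines, and only the lowest, shSix4 with empty vector on slide 1, was not well above background. Col26a1 rose by 5.14 ± 0.78 (log2, SE, n = 3 against 3) in shSix4 cells (limma, adjusted p = 0.00277, range over the alternatives 1.31e-05 to 0.177). No fold is given for that line, where 2 of 3 arrays with empty vector were well above background, and the change was 4.51 without slide 1. It rose by 4.83 ± 0.78 in shLuc cells, which is 28.5-fold (limma, adjusted p = 0.00269, range over the alternatives 7.37e-06 to 0.254). The increase was 4.79 and 4.23 on slides 2 and 3 in shSix4 cells and 5.11, 4.63 and 4.75 on slides 1, 2 and 3 in shLuc cells. The call ended with another background correction (normexp), which gave 2.92 in shSix4 cells (adjusted p = 0.177) and 2.53 in shLuc cells (0.254), and the gene is read by 1 probe. These are bulk samples, in which fewer cells of a type and less RNA per cell cannot be told apart.

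Col26a1 was thus 1 of 29 collagens called higher with MyoD in shSix4 cells, where 2.79% of all genes were called higher, and 1 of 29 in shLuc cells, where 4.72% were. No collagen was called lower in either line, against 0.106% of all genes in shSix4 cells and 1.56% in shLuc cells. With an unadjusted p under 0.05, 1 collagen was found in shSix4 cells, against 1202 of all 12300 genes, and 2 in shLuc cells (Col26a1 and Col17a1), against 2374 of 12300. With the slide as a block the count of collagens called lower became 2 of 29 in shSix4 cells, against 2.6% of all genes, and 7 of 29 in shLuc cells, against 15.7%. Col26a1 stayed the 1 collagen called higher with the block, against 5.7% of all genes in shSix4 cells and 9.89% in shLuc cells. Groups did not overlap, in either direction, for 6.90% of the collagens in shSix4 cells, against 14.6% of all genes. In shLuc cells the share was 17.2%, against 26.2% of all genes. Beside Col26a1 these were Col4a1, higher in both lines, and Col8a1, Col16a1 and Col17a1, lower in shLuc cells.

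Below the threshold, most collagens read lower with MyoD. The median change was -0.14 over the 29 collagens in shSix4 cells, against -0.058 over all genes. There 20 of the 29 lay below 0, against 7135 of all 12300 genes. In shLuc cells the median was -0.40, against -0.14 over all genes, and 25 of 29 lay below 0, against 7984 of all 12300 genes. On all 3 slides 14 of the 29 read lower in shSix4 cells, where 30.2% of all genes did, and 16 of 29 in shLuc cells, where 40.3% did. The responses of the 2 lines, which share no arrays but share the slides, had a Pearson r of 0.94 across the 29 collagens, and of 0.557 without Col26a1, and 24 of 29 (82.8%) had the same sign. Over all genes r was 0.911 and 78.1% had the same sign. These are values across genes, which are not independent replicates. Fibroblast markers also read lower with MyoD, 7 of 8 in each line, with medians of -0.38 in shSix4 and -0.59 in shLuc cells, and their part in the collagen values was not tested. Their mean level was 2.74 to 3.45 in shSix4 cells with MyoD, against 3.24 to 3.64 with empty vector, and 2.87 to 3.38 in shLuc cells with MyoD, against 3.26 to 3.84 with empty vector.

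**Figure D1:**
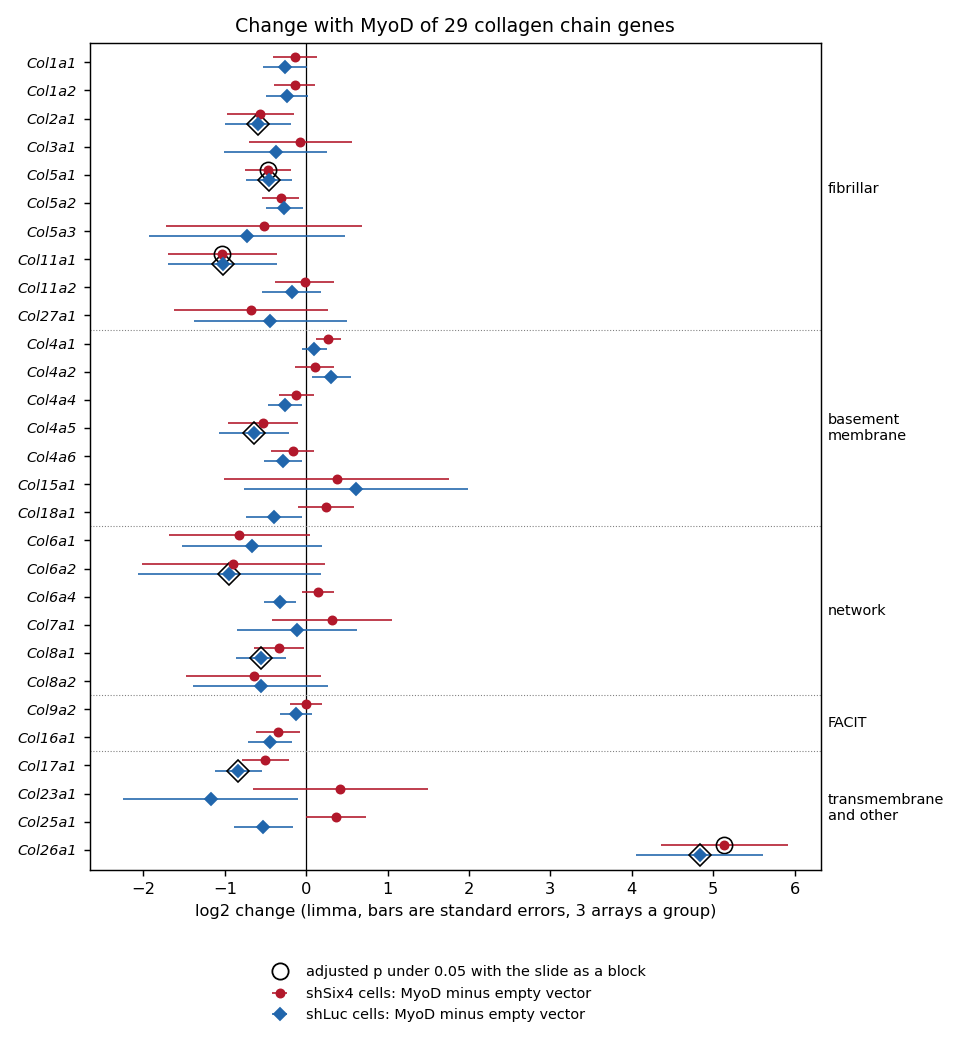
Change with MyoD for the 29 measured collagen chain genes, grouped by class, in shSix4 cells (circles) and shLuc cells (diamonds). The x axis is the log2 difference, MyoD minus empty vector, with standard errors, and black outlines mark adjusted p under 0.05 with the slide as a block; Col26a1 lies at 5.14 and 4.83 while all other collagens lie between -1.17 and 0.61.

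All 10 fibrillar chains read lower with MyoD in both lines, with a median of -0.39 in shSix4 cells and -0.41 in shLuc cells, and none passed the threshold without the block. The sign of Col11a2 in shSix4 cells (-0.016) turned with quantile normalization, with median scaling and without slide 1, and in shLuc cells 8 of 10 read lower with normexp. Over all alternatives the highest value in shSix4 cells was above 0 also for Col1a1 (0.024), Col3a1 (0.52), Col5a3 (0.57) and Col27a1 (0.38). In shLuc cells it was above 0 for Col1a1 (0.03), Col3a1 (0.014), Col5a2 (0.0071), Col5a3 (0.010), Col11a2 (0.037) and Col27a1 (0.076). The other fibrillar chains of each line stayed below 0. Among the fibrillar chains Col11a1 is a chain of the cartilage collagen type XI. Its level was 1.04, 3.27 and 3.26 in shSix4 cells with MyoD, against 2.86, 3.74 and 4.05 with empty vector, and 1.52, 3.44 and 2.96 in shLuc cells with MyoD, against 2.87, 4.17 and 3.96 with empty vector. The groups overlap, slide 1 is lowest in each, and the array with MyoD is the lower one on every slide. The change was -1.03 ± 0.67 in shSix4 cells (adjusted p = 0.782, or 0.0350 with the block) and -1.02 ± 0.67 in shLuc cells (0.463, or 0.0169 with the block).

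Col5a1, the main chain of type V collagen, which starts the assembly of type I fibrils, read lower with MyoD on every slide. Its level was 4.40, 5.05 and 4.87 in shSix4 cells with MyoD, against 4.90, 5.40 and 5.42 with empty vector. In shLuc cells it was 4.0, 4.81 and 4.63 with MyoD, against 4.53, 5.14 and 5.16 with empty vector. Within slides 1, 2 and 3 the change was -0.50, -0.35 and -0.55 in shSix4 cells and -0.53, -0.33 and -0.53 in shLuc cells. It passed with the block in both lines (adjusted p = 0.0299 in shSix4 and 0.0146 in shLuc cells) and not without it (0.742 and 0.429). Col2a1, the chain of cartilage type II collagen, passed with the block in shLuc cells, where it was 3.71, 4.77 and 4.84 with MyoD against 4.63, 5.13 and 5.33 with empty vector (-0.59, adjusted p = 0.485, or 0.0247 with the block). In shSix4 cells Col2a1 was 3.83, 5.0 and 5.19 with MyoD against 4.82, 5.38 and 5.52 with empty vector (-0.56, adjusted p = 0.838, or 0.0619 with the block). The next brightest probe of Col2a1 read -0.97 in both lines and passed with the block in both (adjusted p = 0.0232 in shSix4 and 0.0119 in shLuc cells), and the mean over its probes passed without the block in shLuc cells (-0.78, adjusted p = 0.0341). That of Col5a1 read -0.78 in shSix4 cells (adjusted p = 0.0197 with the block).

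The type I and type III chains, which make up most of the fibrillar collagen of connective tissue, did not pass the threshold by their brightest probes. Col1a1 was 7.53, 7.67 and 7.11 in shSix4 cells with MyoD, against 7.73, 7.72 and 7.27 with empty vector, and 7.46, 7.55 and 7.25 in shLuc cells with MyoD, against 7.68, 8.20 and 7.17 with empty vector. Col1a2 was 8.55, 9.10 and 8.57 in shSix4 cells with MyoD, against 8.86, 9.08 and 8.72 with empty vector, and 8.78, 9.13 and 8.75 in shLuc cells with MyoD, against 9.10, 9.58 and 8.69 with empty vector. The groups overlap for both genes, and the change was -0.14 ± 0.27 (SE) for Col1a1 and -0.14 ± 0.25 for Col1a2 in shSix4 cells, and -0.26 ± 0.27 and -0.24 ± 0.25 in shLuc cells. The 3 kept probes of Col1a1 did not give the same size of change. The next brightest probe read -0.77 in shSix4 cells and -0.66 in shLuc cells, both past the threshold with the block (adjusted p = 0.0150 and 0.0155), an alternative chosen after seeing the data.

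Col3a1, the chain of type III collagen, was 5.58, 7.38 and 7.36 in shSix4 cells with MyoD, against 5.63, 7.45 and 7.45 with empty vector, and 6.03, 7.22 and 7.16 in shLuc cells with MyoD, against 6.41, 7.80 and 7.32 with empty vector. Slide 1 was low in all 4 groups, and the groups overlap. Col5a2, the partner of Col5a1 in type V collagen, was 3.55, 3.22 and 3.92 in shSix4 cells with MyoD, against 3.86, 3.81 and 3.95 with empty vector, and 3.32, 3.70 and 3.74 in shLuc cells with MyoD, against 3.91, 3.53 and 4.13 with empty vector. The change was -0.07 ± 0.63 for Col3a1 and -0.31 ± 0.23 for Col5a2 in shSix4 cells, and -0.37 ± 0.63 and -0.27 ± 0.23 in shLuc cells. For the remaining fibrillar chains it was -0.52 for Col5a3 and -0.68 for Col27a1 in shSix4 cells, and -0.73 and -0.44 in shLuc cells, none past the threshold with or without the block.

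No basement membrane chain was called with MyoD without the block. Col4a1 and Col4a2, which form the type IV trimer found in nearly all basement membranes, read slightly higher, by 0.27 ± 0.15 and 0.10 ± 0.24 (SE) in shSix4 cells and by 0.10 ± 0.15 and 0.31 ± 0.24 in shLuc cells. Col4a5, a type IV chain of kidney and smooth muscle basement membranes, was -2.31, -0.95 and -0.83 in shSix4 cells with MyoD, against -1.35, -0.56 and -0.59 with empty vector. In shLuc cells Col4a5 was -2.23, -1.13 and -1.19 with MyoD, against -1.23, -0.87 and -0.52 with empty vector. It read lower with MyoD on each slide in both lines, while the groups overlap. The change was -0.53 in shSix4 cells (adjusted p = 0.881, or 0.115 with the block) and -0.64 in shLuc cells (0.472, or 0.0315 with the block). Its partner Col4a6 read -0.17 in shSix4 and -0.29 in shLuc cells, with 1 array missing through an outlier mark, and Col4a4, of the kidney glomerulus, read -0.12 and -0.26. Col18a1, the source of endostatin, read 0.24 in shSix4 and -0.40 in shLuc cells, and Col15a1, its relative in the basement membrane zone, 0.37 and 0.61.

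Among the network chains, the type VI chains Col6a1 and Col6a2 read lower with MyoD on every slide in both lines. Col6a2 was 0.06, 4.0 and 3.47 in shSix4 cells with MyoD, against 1.63, 4.28 and 4.31 with empty vector, and 0.64, 2.91 and 2.67 in shLuc cells with MyoD, against 1.56, 3.98 and 3.53 with empty vector. Slide 1 was far below slides 2 and 3 in every group, and the groups overlap. The change was -0.90 in shSix4 cells (adjusted p = 0.972, or 0.103 with the block) and -0.95 in shLuc cells (0.723, or 0.0438 with the block). Col6a1, which pairs with Col6a2, was 2.33, 5.44 and 5.23 in shSix4 cells with MyoD, against 3.77, 5.87 and 5.82 with empty vector, and 2.66, 4.51 and 4.30 in shLuc cells with MyoD, against 3.73, 4.82 and 4.92 with empty vector. Its change was -0.82 in shSix4 and -0.67 in shLuc cells and did not pass with or without the block. Col8a1 read -0.33 in shSix4 cells (adjusted p = 0.930, or 0.292 with the block) and -0.56 in shLuc cells (adjusted p = 0.380, or 0.0478 with the block), where its other kept probe read -1.15 (0.0343 with the block). Col8a2, its partner, read -0.65 and -0.56, Col7a1, the anchoring fibril collagen of skin, 0.32 and -0.11, and Col6a4 0.14 and -0.32 in shSix4 and shLuc cells, none past the threshold.

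The FACIT chains read -0.35 (Col16a1) and -0.0046 (Col9a2) in shSix4 cells and -0.45 and -0.13 in shLuc cells, and neither passed the threshold by its brightest probe. The next brightest probe of Col16a1 read -0.78 in shSix4 cells and -0.70 in shLuc cells, where it passed with the block (adjusted p = 0.0383). The sign of Col9a2 in shSix4 cells turned with quantile normalization and with median scaling. Col17a1, the transmembrane collagen of the hemidesmosome, was -2.67, -2.28 and -2.96 in shSix4 cells with MyoD, against -1.61, -2.33 and -2.45 with empty vector. In shLuc cells Col17a1 was -2.56, -2.98 and -2.98 with MyoD, against -1.55, -2.33 and -2.13 with empty vector. The groups overlap in shSix4 cells and do not overlap in shLuc cells, as for 26.2% of all genes in that line. The change was -0.50 ± 0.29 (SE) in shSix4 cells (adjusted p = 0.712, or 0.183 with the block) and -0.83 ± 0.29 in shLuc cells (0.135, or 0.0196 with the block). Col25a1, a transmembrane collagen that mouse muscle needs for its motor innervation, did not rise past the threshold. It was -3.98, -4.72 and -4.67 in shSix4 cells with MyoD, against -4.39, -5.23 and -4.85 with empty vector, and -4.23, -5.14 and -4.91 in shLuc cells with MyoD, against -4.77, -3.57 and -4.37 with empty vector. The groups overlap, and the change was 0.37 ± 0.37 in shSix4 and -0.53 ± 0.37 in shLuc cells. Col23a1, also transmembrane, read 0.42 in shSix4 and -1.17 in shLuc cells without passing over all slides. The positive value came from slide 1, at -4.59 with MyoD against -7.06 with empty vector, the latter not well above background. On slides 2 and 3 the shSix4 arrays read lower with MyoD, at -3.21 and -3.33, against -2.70 and -2.63 with empty vector. The next brightest probe read -0.49 in shSix4 cells. Without slide 1, an alternative added later, the fall in shLuc cells passed (-1.01, adjusted p = 0.0475, or 0.0381 with the block).

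The next question was how the lines differed. Col8a1 and Col4a2 read lower in shSix4 than in shLuc cells with either vector, a network chain and a type IV chain, while Col4a1, the partner of Col4a2, did not. In the fit without the block 0 of 29 collagens passed with MyoD, against 0.228% of all genes, and 0 of 29 with empty vector, against 0.0569% (limma). The counts at an unadjusted p under 0.05 were 3 with MyoD (Col4a2, Col8a1 and Col18a1), against 960 of all 12300 genes, and 2 with empty vector (Col4a2 and Col8a1), against 547 of 12300. With the slide as a block 2 of 29 were called lower with MyoD, against 2.59% of all genes, and 1 of 29 with empty vector, against 0.496%. The lines did not overlap, in either direction, for 10.3% of the collagens with MyoD, against 12.1% of all genes. With empty vector this held for 10.3% of the collagens, against 8.37% of all genes.

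Col8a1 encodes a chain of type VIII collagen, a network-forming collagen of blood vessels and of the inner membrane of the cornea. With MyoD its level was -0.63, -1.48 and -1.44 in shSix4 cells, against 0.10, -0.22 and -0.06 in shLuc cells. With empty vector it was -0.22, -1.37 and -0.96 in shSix4 cells, against 0.74, 0.45 and 0.30 in shLuc cells. By this probe, the brighter one, all shSix4 arrays lay below all shLuc arrays of the same vector. The difference was -1.12 ± 0.31 (SE) with MyoD, 2.18-fold lower in shSix4 (adjusted p = 0.210, or 0.0122 with the block). With empty vector it was -1.34 ± 0.31, 2.54-fold lower (adjusted p = 0.325, or 0.0152 with the block). By slide the values were -0.73, -1.26 and -1.38 in cells with MyoD and -0.95, -1.82 and -1.26 in cells with empty vector (slides 1, 2 and 3). Over 25 alternatives the difference ranged from -1.40 to -0.60 with MyoD and from -1.66 to -1.08 with empty vector, and the adjusted p from 0.0122 to 0.937 and from 0.00636 to 1.00. The smaller value with MyoD came from the other kept probe of the gene, which read -0.60 with MyoD and -1.45 with empty vector. By that probe the lines overlap with MyoD, and on slide 2 the shSix4 array was the higher one, at -4.24 against -4.60 in shLuc cells. With MyoD the skeletal muscle markers also read lower in shSix4 cells, and their part in this difference was not tested, while with empty vector their mean level was -6.36 to -5.58 in shSix4 and -5.73 to -5.45 in shLuc cells.

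Col4a2 read lower in shSix4 than in shLuc cells by both of its probes. The brighter probe read 2.14, 2.02 and 1.95 in shSix4 cells with MyoD, against 2.87, 3.14 and 3.06 in shLuc cells with MyoD. With empty vector it read 1.99, 1.85 and 1.97 in shSix4 cells, against 3.17, 2.11 and 2.87 in shLuc cells. The lines do not overlap with either vector, and shLuc with empty vector on slide 2 lies closest to the shSix4 arrays. The difference was -0.98 ± 0.24 (SE) with MyoD, 1.98-fold lower in shSix4 (adjusted p = 0.149, or 0.0368 with the block), and -0.78 ± 0.24 with empty vector, 1.72-fold lower (0.759, or 0.151 with the block). Without the array of shLuc with empty vector on slide 2 the difference with MyoD passed without the block (adjusted p = 0.0474).

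The other kept probe of Col4a2 read 0.73, 0.61 and 0.51 in shSix4 cells with MyoD, against 1.62, 1.80 and 1.67 in shLuc cells with MyoD. In cells with empty vector it read 0.58, 0.44 and 0.39 in shSix4 cells, against 1.74, 1.52 and 1.52 in shLuc cells. These values are tight within each group and far apart between the lines. In a fit that took the next brightest probe of each gene, an alternative added later, the difference was -1.08 with MyoD (adjusted p = 0.0221, or 0.00602 with the block) and -1.12 with empty vector (0.0359, or 0.00628 with the block). Over 25 alternatives the difference of Col4a2 lay between -1.12 and -0.52 with MyoD and between -1.12 and -0.30 with empty vector, and its adjusted p between 0.00602 and 0.937 and between 0.00628 and 1.00.

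Col4a1 was 3.29, 2.90 and 2.95 in shSix4 cells with MyoD, against 2.85, 2.95 and 2.94 in shLuc cells with MyoD. With empty vector it was 2.74, 2.75 and 2.84 in shSix4 cells, against 2.83, 2.77 and 2.84 in shLuc cells. The lines overlap with both vectors, and the difference was 0.14 ± 0.15 (SE) with MyoD and -0.04 ± 0.15 with empty vector. The other kept probe of Col4a1 read -0.019 with MyoD and 0.017 with empty vector. The plot of levels by array shows the lines within each vector for the brighter probe of Col8a1 and both probes of Col4a2 beside Col4a1.

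**Figure D2:**
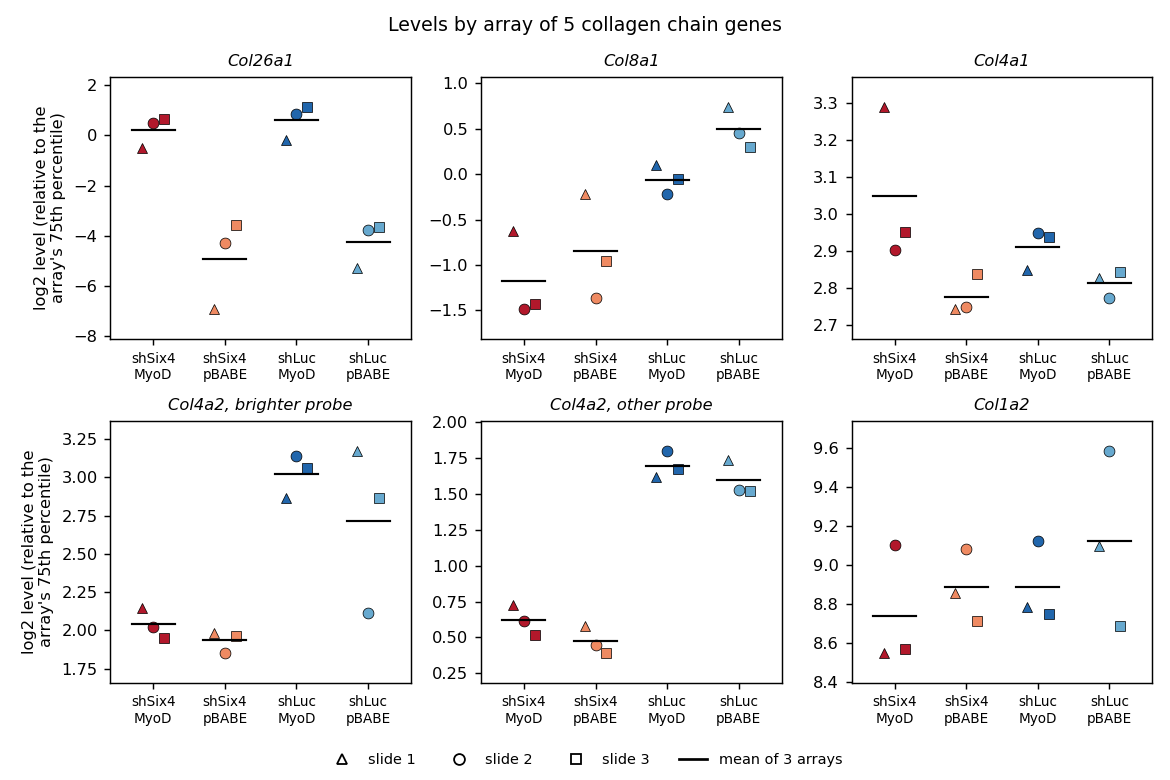
Levels by array of Col26a1, Col8a1, Col4a1, both probes of Col4a2, and Col1a2 (y axis, log2 relative to the array's 75th percentile) in the 4 groups of 3 arrays, with the slide as the symbol and the group mean as a bar. Col26a1 separates MyoD from empty vector. Within each vector, the brighter probe of Col8a1 and both probes of Col4a2 separate shSix4 from shLuc. The Col4a1 arrays all lie between 2.74 and 3.29, and the y axes differ between panels.

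Col4a1 and Col4a2 lie head to head on chromosome 8 in the RefSeq annotation of GRCm38.p6. Their annotated starts are 21 bases apart, at 11312826 on the minus strand for Col4a1 and at 11312805 on the plus strand for Col4a2. The annotated transcripts thus overlap at their starts. Their promoter windows, taken from 250 bases before to 50 bases after the start, share 78 bases. These shared bases hold both annotated starts, and most of each window lies within the other gene. These windows and that of Col8a1 are shown because Col8a1 and Col4a2 had the lowest differences between the lines, and Col4a1 is the partner of Col4a2. They were picked from these same data, and none of them passed between the lines in the fit without the block. They come from RefSeq (GRCm38.p6) and run 5′ to 3′ on the strand of the gene. Capitals mark the 78 shared bases in the Col4a2 window (chr8:11312555-11312854, plus strand) and the Col4a1 window (chr8:11312777-11313076, minus strand), and the motif CANNTG in the Col8a1 window (chr16:57754688-57754987, minus strand).
Col4a2: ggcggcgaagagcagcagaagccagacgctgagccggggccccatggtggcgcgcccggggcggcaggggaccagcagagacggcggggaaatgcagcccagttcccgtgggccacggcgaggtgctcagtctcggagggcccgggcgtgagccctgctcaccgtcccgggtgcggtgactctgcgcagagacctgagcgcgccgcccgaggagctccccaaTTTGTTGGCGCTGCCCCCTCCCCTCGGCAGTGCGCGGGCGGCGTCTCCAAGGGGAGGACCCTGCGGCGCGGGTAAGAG
Col4a1: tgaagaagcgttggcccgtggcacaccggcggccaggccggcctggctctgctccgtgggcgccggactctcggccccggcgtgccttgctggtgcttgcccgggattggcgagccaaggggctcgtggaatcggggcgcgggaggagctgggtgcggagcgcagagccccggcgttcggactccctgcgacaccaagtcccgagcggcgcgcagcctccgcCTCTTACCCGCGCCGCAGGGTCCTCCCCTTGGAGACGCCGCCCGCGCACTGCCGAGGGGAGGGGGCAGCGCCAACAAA
Col8a1: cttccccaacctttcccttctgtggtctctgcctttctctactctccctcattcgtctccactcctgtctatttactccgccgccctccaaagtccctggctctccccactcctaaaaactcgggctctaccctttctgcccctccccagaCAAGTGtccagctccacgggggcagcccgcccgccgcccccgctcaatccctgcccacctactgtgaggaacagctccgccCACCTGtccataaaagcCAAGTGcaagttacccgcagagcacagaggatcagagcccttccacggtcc

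CANNTG, the E-box to which MyoD binds, was searched on both strands, and the Col8a1 window holds 3, the Col4a1 and Col4a2 windows none. At least 1 is found in 72.3% of all 32851 promoter windows of the table and in 20 of 38 collagen windows, which belong to 35 genes, 25 of them measured. CAGCTG, one form of CANNTG, is in none of these 3 windows, in 16.3% of all windows and in 7 of the 38 collagen windows. The MEF3 sequence TCAGGTTTC, known to be bound by proteins of the family of Six4, is in none of these 3 windows, in 0.429% of all windows and in 1 of the 38 collagen windows, that of Col19a1, which was not measured. The table holds no window for Col26a1. A match in such a window is a description of its letters and no evidence of binding, and a missing match says nothing of the factor.

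**Figure D3:**
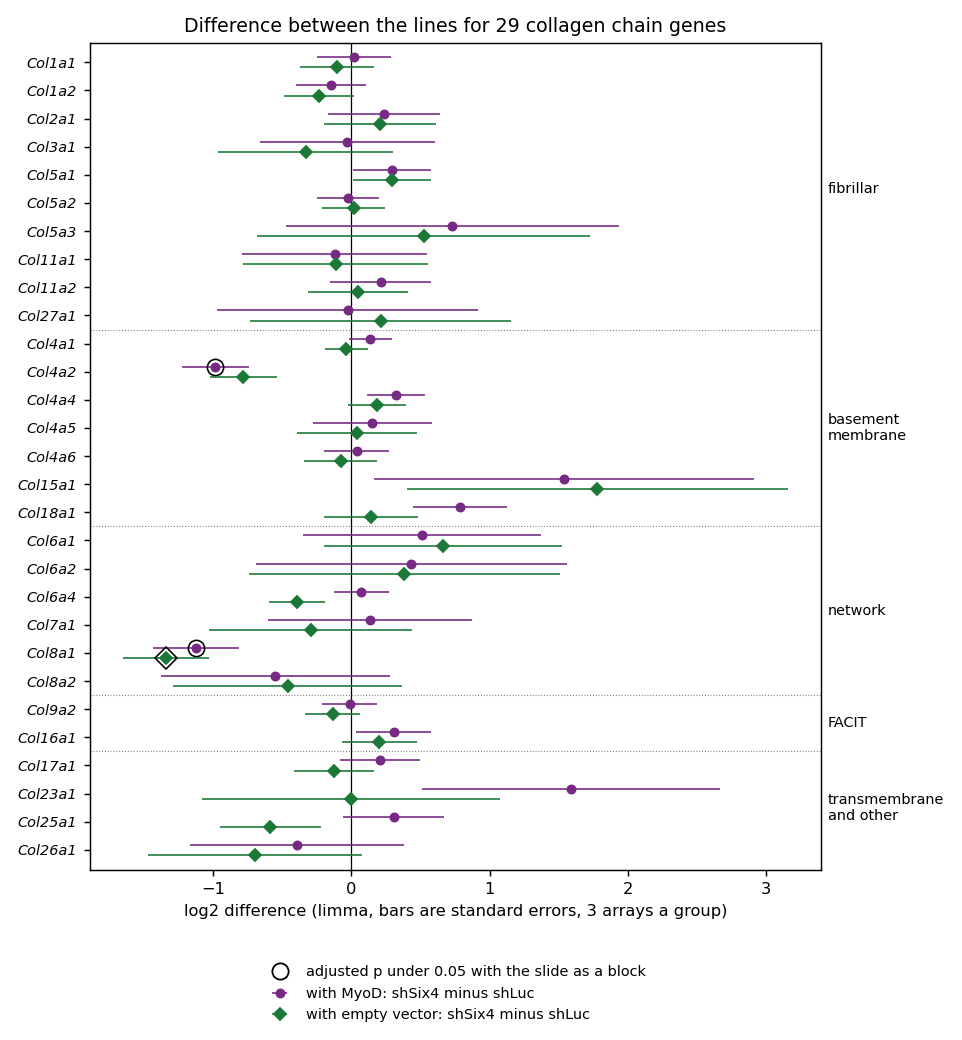
Difference between the lines, shSix4 minus shLuc, for the 29 measured collagen chain genes with MyoD (circles) and with empty vector (diamonds). The x axis is the log2 difference with standard errors, and black outlines mark adjusted p under 0.05 with the slide as a block; Col8a1 (-1.12 and -1.34) and Col4a2 (-0.98 and -0.78) lie lowest, and Col15a1 (1.54 and 1.78) has a wide error.

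Some differences between the lines depended on slide 1. Col15a1, a collagen of the basement membrane zone of muscle and vessels, was -5.04, -0.64 and -0.84 in shSix4 cells with MyoD, against -5.24, -3.32 and -2.58 in shLuc cells with MyoD. In cells with empty vector it was -5.38, -1.12 and -1.14 in shSix4 cells, against -5.61, -3.83 and -3.53 in shLuc cells. The shSix4 array was the higher one on every slide, by 0.20, 2.67 and 1.75 on slides 1, 2 and 3 with MyoD and by 0.23, 2.71 and 2.40 in cells with empty vector. On slide 1 all 4 groups were near the lowest levels, and the shSix4 arrays there were not well above background, while on slides 2 and 3 the shSix4 arrays lay above every shLuc array. The difference was 1.54 ± 1.38 (SE) with MyoD (adjusted p = 0.999, or 0.124 with the block) and 1.78 ± 1.38 with empty vector (0.999, or 0.157 with the block). Without slide 1, an alternative added once the data had been seen, it was 2.21 with MyoD (adjusted p = 0.0198), while cells with empty vector gave 2.55 (0.00591). Over all its alternatives the adjusted p of Col15a1 lay between 0.0101 and 1.00 with MyoD and between 0.00391 and 1.00 in cells with empty vector.

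Without slide 1, 4 of 29 collagens were called with MyoD, against 2.2% of all genes, and 3 of 29 with empty vector, against 2.28%. Higher in shSix4 cells were Col15a1 and Col6a1 with both vectors and Col23a1 with MyoD, and lower was Col8a1 with both. Col6a1 read 0.93 with MyoD (adjusted p = 0.0413) while cells with empty vector gave 0.97 (0.0332), and Col23a1 read 1.35 with MyoD (0.0402). On slide 1 Col23a1 with MyoD was at -4.59 in shSix4 cells against -6.66 in shLuc cells, and that shLuc array was not well above background. With empty vector the slide 1 values went the other way, at -7.06 in shSix4 cells, not well above background, against -5.16 in shLuc cells. With the block in the same 8 arrays the count was 7 with MyoD, against 4.98% of all genes, and 4 with empty vector, against 3.51%. The added genes were Col4a2 (-1.12), Col5a3 (1.08) and Col6a2 (0.94) with MyoD and Col5a3 (1.02) with empty vector. Over all 3 slides Col6a1 read 0.51 with MyoD and 0.66 with empty vector, Col5a3 0.73 and 0.52, Col6a2 0.43 and 0.38, and Col23a1 1.59 and -0.0029, none past the threshold. Col18a1 read 0.79 ± 0.34 (SE) with MyoD, with the shSix4 arrays above the shLuc arrays, and did not pass (adjusted p = 0.599, or 0.135 with the block). Its next brightest probe read 0.72 and passed with the block (adjusted p = 0.0380, range over the alternatives 0.0380 to 1.00).

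Over the 29 collagens the median difference between the lines was 0.14 with MyoD, against 0.029 over all genes, and -0.038 with empty vector, against -0.025 over all genes. The fibrillar chains were spread around 0, with medians of -0.0045 with MyoD and 0.033 with empty vector and values from -0.33 to 0.73. Col1a1 read 0.017 and -0.11, and Col1a2 -0.15 and -0.24. Whether the response to MyoD differed between the lines was tested directly as an interaction. None of the 29 collagens passed (limma), against 0% of all genes, also with the block. At an unadjusted p under 0.05 the interaction held 0 of 29 collagens and 249 of all 12300 genes. The median interaction was 0.12 over the collagens and 0.073 over all genes, and the value of Col26a1 was 0.31 ± 1.1 (SE).

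Many collagens also differed between slides. With group means in the fit, 15 of 29 collagens were lower on slide 1 than on slides 2 and 3, against 24.3% of all genes, and 3 were higher, against 33.6% (limma, adjusted p under 0.05). Between the 2 slides scanned on the same day, 0 of 29 collagens were higher on slide 2 than on slide 3, against 0.00813% of all genes, and 0 lower, against 0.0813%. At an unadjusted p under 0.05 this contrast held 6 of 29 collagens and 2318 of all 12300 genes. Col15a1 was lowest relative to the other slides, at -3.19 ± 0.38 (log2, SE, adjusted p = 0.000155). Col5a3, the third type V chain, was at 0.21 to 0.91 on the 4 arrays of slide 1 and at 2.24 to 4.21 on the 8 arrays of slides 2 and 3, a difference of -2.87 ± 0.24. Col6a2 was at 0.06 to 1.63 on slide 1 and at 2.67 to 4.31 on slides 2 and 3 (-2.67 ± 0.22), and Col3a1 at 5.58 to 6.41 and at 7.16 to 7.80 (-1.48 ± 0.14). The arrays of slide 1 do not overlap with the others for these 3 genes.

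**Figure D4:**
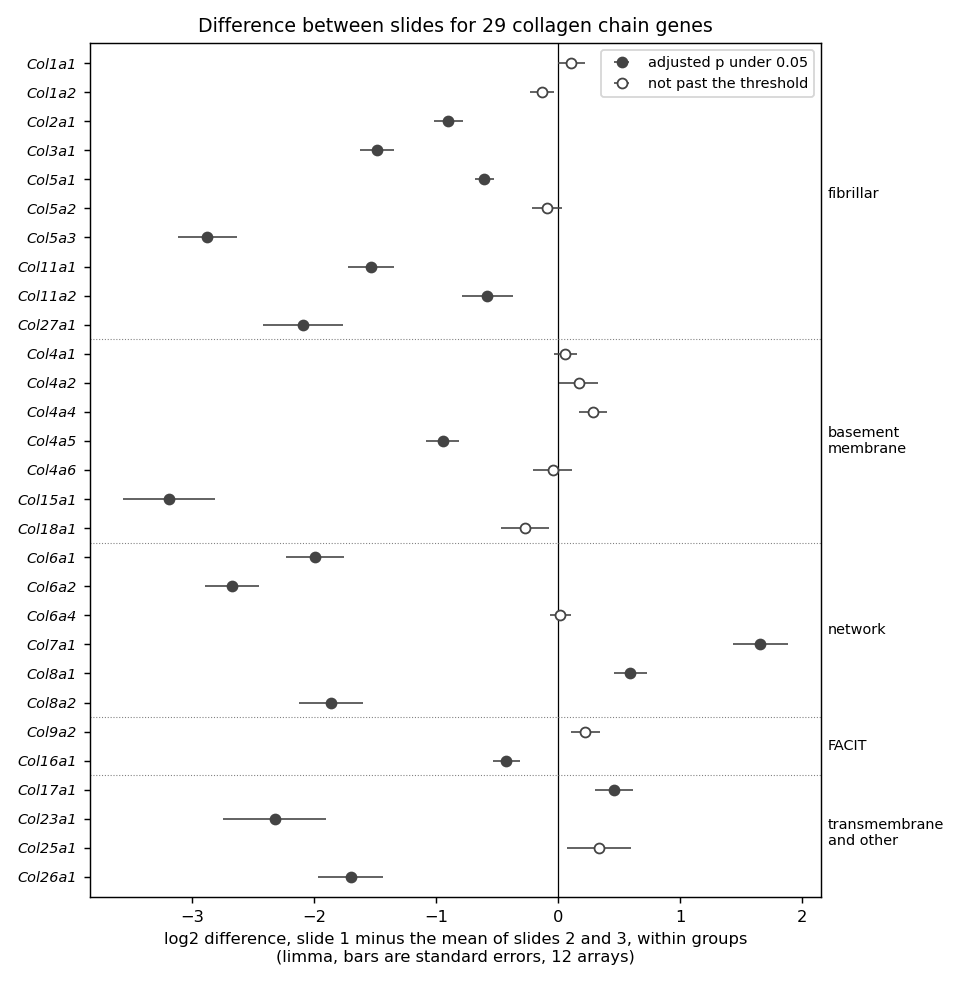
Difference of slide 1 from the mean of slides 2 and 3 within groups for the 29 measured collagen chain genes. The x axis is the log2 difference with standard errors over 12 arrays, and filled points are past an adjusted p of 0.05; 15 chains are lower and 3 (Col7a1, Col8a1 and Col17a1) higher on slide 1, while Col1a1, Col1a2, Col4a1 and Col4a2 are not past the threshold.

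Among the fibrillar chains 7 of 10 were lower on slide 1 (Col2a1, Col3a1, Col5a1, Col5a3, Col11a1, Col11a2 and Col27a1), while the type I chains read 0.11 (Col1a1) and -0.13 (Col1a2). Among the type IV chains Col4a5 was lower (-0.95), and Col4a1, Col4a2, Col4a4 and Col4a6 did not pass, at -0.04 to 0.29. Col6a1 (-1.99) and Col8a2 (-1.86) were lower, while Col7a1 was higher, at 0.83 to 1.66 on slide 1 and -1.01 to -0.10 on slides 2 and 3 (1.66 ± 0.22). Col8a1 (0.59) and Col17a1 (0.46) were higher too. Among the other chains Col23a1 (-2.32), Col26a1 (-1.70) and Col16a1 (-0.42) were lower. Over all genes 33.6% were higher and 24.3% lower on slide 1. Beside these, 6 of 8 fibroblast markers were lower and 1 higher, and 5 of 8 skeletal muscle markers were higher and none lower. Of 4 measured epithelial markers 3 were higher and none lower (median 1.07), and 7 of 12 collagen-binding matrix proteins were lower and none higher. Genes of collagen modification and folding had 6 of 17 higher and 4 lower. Procollagen cleavage and cross-linking had 1 of 9 higher and 2 lower, and collagen receptors 1 of 6 and 2. Chondrocyte markers had 1 of 5 higher and 2 lower, osteoblast markers 1 of 5 and 1, and adipocyte markers 1 of 3 and 2. The part of these lists in the collagen differences was not tested, and scan day and whatever else the slides had apart cannot be told apart.

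**Figure D5:**
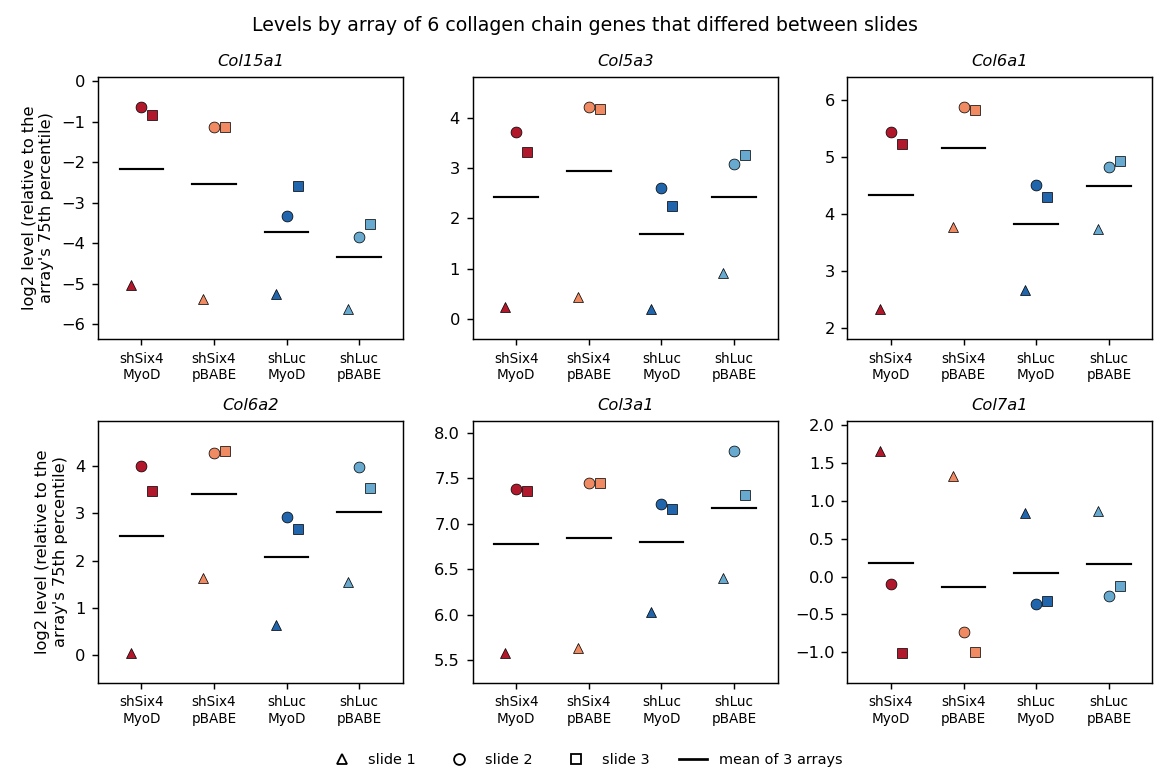
Levels by array of Col15a1, Col5a3, Col6a1, Col6a2, Col3a1 and Col7a1 (y axis, log2 relative to the array's 75th percentile) in the 4 groups of 3 arrays, with the slide as the symbol and the group mean as a bar. Slide 1 (triangles) is lowest in every group for the first 5 genes and highest in every group for Col7a1; the y axes differ between panels.

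The genes that modify, cleave and bind collagen were read beside the chains. None of 17 measured genes of collagen modification and folding passed with MyoD in either line without the block, and 15 read below 0 in shSix4 cells and 16 in shLuc cells, with medians of -0.23 and -0.28. Over all 12300 genes 7135 read below 0 in shSix4 cells and 7984 in shLuc cells. Calls between the lines with the block in these lists stand beside 2.59% of all genes called lower in shSix4 cells with MyoD and 0.496% with empty vector. The calls for MyoD against empty vector with the block stand beside 5.7% of all genes called higher and 2.6% lower with MyoD in shSix4 cells. In shLuc cells 9.89% of all genes were called higher and 15.7% lower with MyoD. With the block Fkbp10, a prolyl isomerase that helps to fold procollagen, was called lower with MyoD in shSix4 cells (-0.51, adjusted p = 0.0399) and in shLuc cells (-0.60, 0.00921). The hydroxylation complex members P3h3 (-0.46) and Crtap (-0.41) and the COPII coat gene Sec23a (-0.63), whose coat carries procollagen out of the endoplasmic reticulum, were called lower with the block in shLuc cells.

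Of 9 genes for procollagen cleavage and cross-linking, Tgm2, a transglutaminase that cross-links matrix proteins, was called lower in shLuc cells, where 1.56% of all genes were. Tgm2 was 0.54, 0.55 and 0.37 in shSix4 cells with MyoD, against 1.33, 1.2 and 1.39 with empty vector, and 0.64, -0.04 and 0.31 in shLuc cells with MyoD, against 1.54, 1.12 and 1.11 with empty vector. The groups do not overlap in either line, as for 14.6% of all genes in shSix4 cells and 26.2% in shLuc cells. It fell by 0.95 ± 0.20 in shLuc cells (log2, SE, adjusted p = 0.0175), and the change in shSix4 cells was -0.82 ± 0.20 (0.0630, or 0.00971 with the block). With the block Pcolce2, an enhancer of procollagen cleavage, was lower in shSix4 cells (-1.12, adjusted p = 0.0346) and in shLuc cells (-1.52, 0.00402), and the propeptidase Adamts2 (-0.54) and the lysyl oxidase Loxl3 (-0.67) were lower in shLuc cells.

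Of 6 collagen receptors, Adgrg1, an adhesion receptor that binds type III collagen, was called higher with MyoD in shLuc cells, where 4.72% of all genes were. It was 0.02, -0.82 and -0.39 in shSix4 cells with MyoD, against -1.24, -2.02 and -2.16 with empty vector, and 1.47, 0.23 and 0.72 in shLuc cells with MyoD, against -1.16, -1.68 and -1.92 with empty vector. The arrays with MyoD lay above those with empty vector in both lines. Groups did not overlap, in either direction, for 14.6% of all genes in shSix4 cells and 26.2% in shLuc cells. It rose by 2.39 ± 0.37 in shLuc cells (adjusted p = 0.00193), and read 1.41 ± 0.37 in shSix4 cells (0.0816, or 0.000734 with the block). In cells with MyoD the difference, shSix4 minus shLuc, was -1.20 (adjusted p = 0.264, or 0.00981 with the block), and the interaction did not pass. The integrin chain Itga11, a receptor for fibrillar collagen, was -1.18 in shSix4 against shLuc cells with MyoD (0.0867, or 0.0228 with the block). The collagen receptor kinase Ddr2 was lower with MyoD with the block in shSix4 cells (-0.62, adjusted p = 0.0493) and in shLuc cells (-0.88, 0.00520), and the endocytic receptor Mrc2 in shLuc cells (-0.54, 0.0296).

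None of 12 collagen-binding matrix proteins passed without the block in any of the 4 comparisons between groups, and with the block 1 was called higher in each line with MyoD and 4 lower in shLuc cells. With the block and MyoD the trimeric glycoprotein Thbs1 was higher in shSix4 cells (1.2, adjusted p = 0.0227) and in shLuc cells (0.82, 0.0463). The small leucine-rich proteoglycans Dcn (-0.71), Fmod (-0.65) and Lum (-1.28), which coat fibrils, and the basement membrane linker Nid1 (-0.42) were lower in shLuc cells. Lum was also lower in shSix4 than in shLuc cells with the block, at -1.34 with MyoD (adjusted p = 0.0316), and at -1.99 in cells with empty vector (0.0224).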

How the data were processed

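Total RNA of 12 samples (4 groups of 3) was labelled with Cy3 and hybridised to single-colour Agilent arrays. The deposited scanner files hold intensity values made with Agilent Feature Extraction 11.5.1.1, per the file headers, while the submitters' processing notes name 10.5.1.1. The authors' deposited series table holds log2 values for part of the probes, with centring not given in the sources used here, and served as an alternative only. The processed intensity of each spot, as deposited, was taken to log2 and reduced by its array's 75th percentile over 43379 non-control spots. Spots with an outlier mark (1919 over all arrays) were left out, and none was saturated. Spots of a probe were averaged, and a probe was kept (24000 of 41174) if some group had it well above background on each of its 3 arrays. Probes were named through RefSeq accessions (GRCm38.p6), which named 24844 and left 16330 unnamed. The brightest kept probe stood for a gene, giving 12300 genes.

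The 4 groups were fitted together with limma 3.58.1 in R 4.3.3 (lmFit and eBayes), with 5 comparisons, Benjamini-Hochberg adjustment over the 12300 genes and a threshold of 0.05. The fit without the block was tested on simulated data with independent noise on each array. These data held no slide effect, and the fit with the block was not tested on them. Replicate numbers coincide with the slide given in the file headers. Deviations from group means correlated at 0.278 to 0.819 in 18 pairs of arrays on the same slide and at -0.733 to 0.498 in 36 pairs on different slides, so the numbers pair the arrays, and a fit with the slide as a block was run beside the one without it. Alternatives changed the normalization, background correction, filter, outlier marks, probe choice and arrays used. The normexp alternative used median instead of mean spot signals, since the deposited intensity columns used here do not include the mean. The collagen members, the classes and the other gene lists were chosen with earlier results of these data known. Values on every array are given for collagens past the threshold in either fit and for a set of widely studied chains, and other listed genes are named where they passed. The leave-out of slide 1, the next brightest probe and the contrast of slides were chosen after seeing the data. The number of arrays limits the precision.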

Additional observations from a re-analysis of the deposited data

How the results depend on the processing

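Col26a1 with MyoD, the collagen past the threshold without the block, kept its sign under its 22 alternatives in each line, and so did the collagens that passed with the block on all 12 arrays. Calls made without slide 1 or with the next brightest probe alone did not all do so: between the lines with MyoD other alternatives gave values down to -0.07 for Col6a1, -0.04 for Col23a1, -0.0081 for Col5a3 and -0.31 for Col6a2. With MyoD they gave up to 0.03 for Col1a1 in shLuc cells and 0.024 in shSix4 cells, 0.0048 for Col16a1 in shLuc cells, and between the lines with empty vector down to -0.23 for Col5a3. Of the single values, 1544 of 1740 with 1 array left out in turn and 1211 of 1286 under the other alternatives not added later kept their direction and their side of the threshold, and 2 calls were lost, both of Col26a1 with normexp. Counts of collagens called are given here against 1 with MyoD in each line and 0 between the lines. With MyoD in shSix4 cells the count was 0 with normexp, 0 with the filter on all arrays, which drops Col26a1, and 0 in the authors' deposited table, which holds 6 collagens and not Col26a1. It was 3 with the slide as a replicate block and 4 with the next brightest probe and the block. With MyoD in shLuc cells it was 0, 0 and 0 under the same 3 alternatives, 8 with the block, 2 with the mean over probes, 2 without slide 1, 4 without slide 1 with the block, and 7 with the next brightest probe and the block. Between the lines with MyoD it was 2 with the block, 1 with the mean over probes, 1 with the next brightest probe and 2 with that probe and the block, 4 without slide 1 and 7 without it with the block. With empty vector it was 1 with the block, 1 with the next brightest probe, with or without the block, 3 without slide 1 and 4 without it with the block. With 1 array left out in turn the counts were 1 to 1 with MyoD in either line, 0 to 1 between the lines with MyoD, 0 to 0 with empty vector and 0 to 0 for the interaction. Over all genes, 772 were called with MyoD in shLuc cells, against 86 with normexp, 457 with the filter on all arrays and 3153 with the block. In shSix4 cells 356 were called, against 49, 154 and 1021 under the same alternatives. The pairing by slide changed no call of the interaction. The cause of these changes was not tested. Signal over background limits Col15a1, Col23a1, Col26a1 and Col27a1, which were not well above background on every array.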
